A study of Mus musculus with 4 samples.

Results

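Iron handling and ferroptosis guard genes were followed through the left ventricle of young and aged mice, with and without ischemia and reperfusion (I/R). The set held 10 genes of the 32285 in the files, matched by symbol: Fth1 and Ftl1 (iron storage), Ncoa4 (ferritin turnover), Trf, Tfrc and Slc11a2 (carrier and uptake), Slc40a1 (export), Aco1 and Ireb2 (iron sensors) and Gpx4 (defence against lipid peroxides). Tfrc, the transferrin receptor, was lower after I/R at both ages, 2.91-fold in young and 2.58-fold in aged mice. Gpx4 was higher after I/R in young mice and lower in aged mice. Such opposite signs, beyond counting error, were seen for 41.4% of 10541 genes. All samples were male wild-type C57BL/6J mice. The young sham and young I/R mice were 3 to 5 months old, and the aged sham and aged I/R mice 24 to 26 months. In I/R mice the left anterior descending artery was closed for 45 min and the tissue was taken after 24 h of reperfusion. The labels describe the sham tissue as healthy and unaltered, whereas the study's methods speak of sham operations. They also name nuclear RNA as the molecule, whereas the study describes single cells. How many mice each library holds is not given in the sources used here. Where 4 values follow each other without labels, they run from young sham to young I/R, then aged sham, then aged I/R.

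Each of the 4 conditions was 1 droplet library with no replicate, so no test between conditions was possible and no p-value is given. Values are counts of unique molecular identifiers (UMIs), that is, of captured transcripts, summed over all barcodes of a library and given as CPM, the count scaled to the total UMIs of that library. Bracketed ranges are 95% exact Poisson intervals for a level and exact conditional intervals for a ratio. They cover counting error only, not the spread between animals. All ratios are on the log2 scale of CPM. In summed tissue, fewer cells of a type and less RNA per cell cannot be told apart.

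The libraries held 91124 to 102883 barcodes and 25836175 (young sham) to 66767829 UMIs (aged I/R), with a median of 244 to 675 UMIs per barcode. Barcodes with at least 200 detected genes made up 28.4%, 55.2%, 67.9% and 98.8%, so barcode depth differed between the conditions and was lowest in young sham. Mitochondrial genes held 10.0%, 14.1%, 15.6% and 9.98% of the UMIs. Gm42418 held 11.5%, 19.4%, 14.0% and 13.8%, and Malat1 7.34%, 2.22%, 2.88% and 4.33%. Barcode sequences also found in another library made up 7.44% to 7.92% of each library. Leaving them out moved none of the 40 ratios of the 10 genes by more than its counting interval. Cardiomyocyte markers were found in 100% of barcodes of every library and summed to 97160.4, 83427, 87949 and 109725 CPM, all 14 markers being present. Endothelial markers (14) summed to 1438, 1002, 1448 and 1471 CPM, fibroblast markers (14) to 1048, 642, 1139.5 and 1065, macrophage markers (16) to 443, 336, 556 and 588 and mural markers (10) to 838, 613, 846 and 819.5, with none at 0. Neutrophil markers (11) summed to 14.9, 105, 25.2 and 104 CPM, and 1 of them, Ly6g, was at 0 in young sham. Hemoglobin genes (4) summed to 2558, 1948, 1685 and 1018 CPM, and lymphocyte markers (9) to 7.28, 2.19, 11.3 and 6.83 CPM.

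Cells take up iron bound to transferrin through the transferrin receptor, store what they do not use in ferritin, and export it through ferroportin. The iron regulatory proteins, encoded by Aco1 and Ireb2, read the iron supply: in iron-poor cells they bind hairpins called iron-responsive elements, which blocks translation of ferritin and ferroportin and protects the transferrin receptor mRNA from decay. Ferroptosis is a form of cell death driven by iron-dependent lipid peroxidation, which Gpx4 counters by reducing lipid peroxides, and it is among the forms of cell death described in the reperfused heart.

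The hairpins are shown first because they are the shared sequence through which Fth1, Ftl1, Slc40a1 and Tfrc are known to respond to iron. They were searched for in the untranslated regions (UTRs) of protein-coding transcripts in GENCODE M21 on GRCm38. The pattern was a C, then 5 stem letters, the loop CAGTGN with A, C or T as its last letter, and 5 letters that pair with the stem, with G-T pairs allowed, on the transcript strand. Each site is printed 5′ to 3′ over 30 bases in DNA letters, with the 6 loop letters in capitals.
Fth1, 5′ UTR, chr19:9982731-9982760, plus strand: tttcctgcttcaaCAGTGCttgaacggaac
Ftl1, 5′ UTR, chr7:45459779-45459808, minus strand: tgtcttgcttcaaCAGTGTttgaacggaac
Slc40a1, 5′ UTR, chr1:45925465-45925494, minus strand: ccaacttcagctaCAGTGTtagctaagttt
Tfrc, 3′ UTR, chr16:32631218-32631247, plus strand: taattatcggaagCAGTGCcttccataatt
Tfrc, 3′ UTR, chr16:32631597-32631626, plus strand: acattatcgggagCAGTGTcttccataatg
Tfrc, 3′ UTR, chr16:32631662-32631691, plus strand: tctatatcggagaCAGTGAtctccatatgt
Tfrc, 3′ UTR, chr16:32631709-32631738, plus strand: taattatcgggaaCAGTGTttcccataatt
The pattern occurred in the 5′ UTR of 3 of the 10 genes, against 23 of 20916 genes (0.11%). In the 3′ UTR it occurred in 1 of the 10, against 100 of 21039 genes (0.475%). Since the genes with a site are known for such hairpins, the difference from all genes was set by the choice of genes. The ferritin sites carried the same stem, ttcaa with ttgaa. All 4 Tfrc sites lay in exon 19. The Fth1 site was in 4 of its 5 coding transcripts, the Ftl1 site in 1 of 2, the Slc40a1 site in 1 of 4 and each Tfrc site in 1 of 3. No match in the other members says only that this exact pattern is not in their annotated UTRs. A hairpin with a mismatch in the 5 stem letters or another loop would be missed, in any of the genes. The counts themselves do not measure binding.

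Fth1, the ferritin heavy chain that oxidises iron on its way into the shell (chr19:9980598-9985098), stood at 1009 CPM in young sham (997 to 1021, 26070 UMIs), 1397 in young I/R (1385 to 1409), 1460.3 in aged sham (1449 to 1472) and 1439.8 in aged I/R (1431 to 1449). Young sham was thus the low library, and the other three lay within a narrow band, with the intervals of aged sham and aged I/R meeting at their edges. The ratio of I/R to sham was 0.47 (0.45 to 0.49) in young and -0.02 (-0.04 to -0.01) in aged mice.

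Ftl1, the ferritin light chain that helps the iron core to form (chr7:45457944-45459884), stood at 152 CPM in young sham (147 to 157), 241 in young I/R (236 to 246), 185 in aged sham (181 to 189) and 243 in aged I/R (239 to 247). Both I/R libraries lay above both sham libraries, and the I/R libraries did not differ beyond counting error. Ftl1 was 1.59-fold higher after I/R in young mice, a log2 ratio of 0.67 (0.61 to 0.72), and 0.39 (0.35 to 0.43) higher in aged mice. The annotation holds ferritin pseudogenes that were not counted. Ftl1-ps1, which it gives as protein-coding, was counted at 2.71 to 4.35 CPM. The levels of Fth1 and Ftl1 are uncertain to the extent that such copies share reads.

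Ncoa4, the receptor that delivers ferritin to autophagy (chr14:32159865-32179855), stood at 26.1 CPM in young sham (24.2 to 28.1), 20.3 in young I/R (18.9 to 21.7), 24.5 in aged sham (23.1 to 26.1) and 29.6 in aged I/R (28.3 to 30.9). The sham libraries overlapped, with young I/R below them and aged I/R above. Its I/R ratios were -0.36 (-0.51 to -0.21) in young and 0.27 (0.16 to 0.38) in aged mice, and neither passed 1.5-fold.

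**Figure D1:**
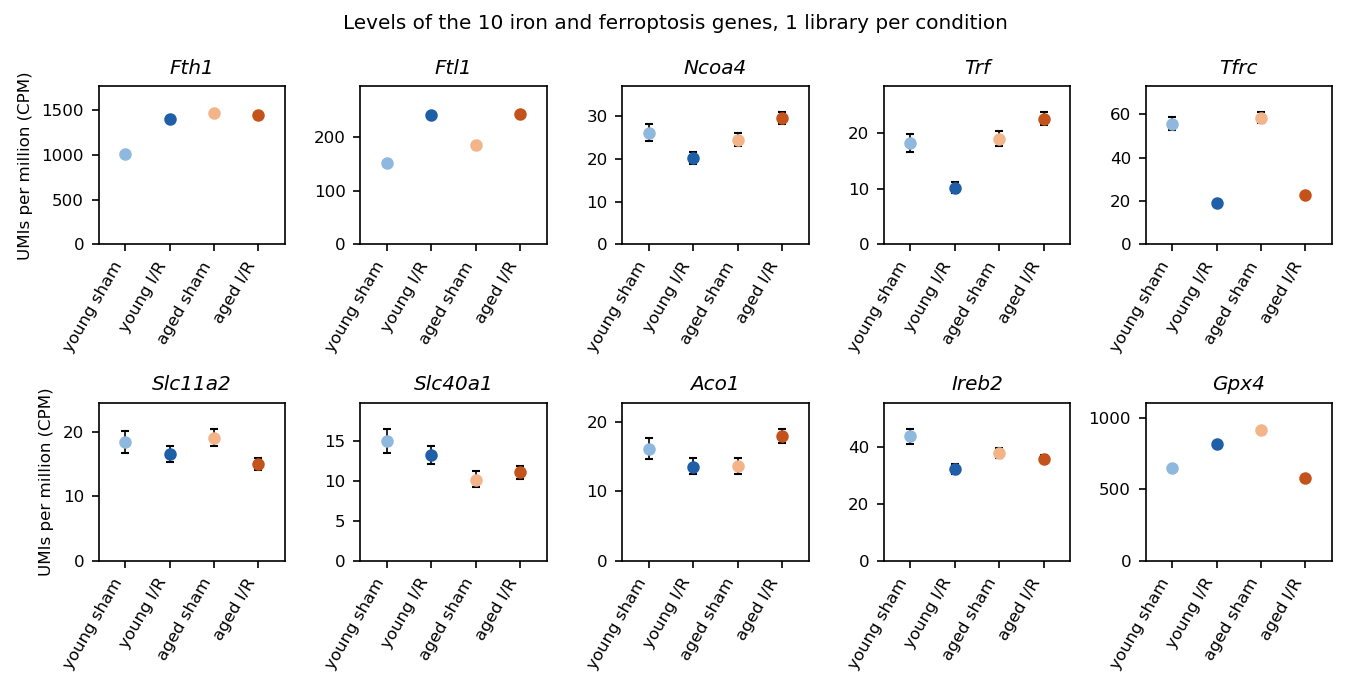
Levels of the 10 genes in the 4 libraries, in CPM (linear axes from 0), with 95% exact Poisson intervals as bars where they exceed the point. Tfrc lies at 55.7 and 58.5 CPM in the sham libraries and at 19.2 and 22.7 CPM in the I/R libraries, and Fth1 is lowest in young sham at 1009 CPM.

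Tfrc, the transferrin receptor that brings transferrin-bound iron into the cell (chr16:32608920-32632794), differed most between sham and I/R among the 10 genes. It stood at 55.7 CPM in young sham (52.8 to 58.6, 1438 UMIs), 19.2 in young I/R (17.8 to 20.6, 760 UMIs), 58.5 in aged sham (56.2 to 60.8, 2418 UMIs) and 22.7 in aged I/R (21.6 to 23.9, 1516 UMIs). Both sham libraries were high and overlapped, and both I/R libraries were low, aged I/R being the higher of them. Tfrc was 2.91-fold lower after I/R in young mice, a ratio of -1.54 (-1.67 to -1.41), and 2.58-fold lower in aged mice, a ratio of -1.36 (-1.46 to -1.27). Among all genes with at least 100 UMIs in both libraries these ratios stood at the 4.55th percentile in young and the 0.220th in aged mice.

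Trf, the iron carrier transferrin (chr9:103204001-103230444), stood at 18.2 CPM in young sham (16.5 to 19.9, 469 UMIs), 10.2 in young I/R (9.24 to 11.3, 405 UMIs), 19.0 in aged sham (17.7 to 20.4, 786 UMIs) and 22.5 in aged I/R (21.4 to 23.7, 1504 UMIs). Young I/R stood apart on the low side and aged I/R just above both sham libraries, which overlapped. Trf was 1.78-fold lower after I/R in young mice (-0.83, -1.03 to -0.64), but 0.25 higher on the log2 scale in aged mice (0.12 to 0.37). Scaled by gene-wise ratios, as defined below, the young ratio was -0.43 and no longer past 1.5-fold. The Trf locus overlaps Gm20425 on the same strand, which has no row in the files.

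Slc11a2, which carries ferrous iron across the endosomal and cell membranes (chr15:100387898-100425072), stood at 18.3 CPM in young sham (16.7 to 20.1), 16.5 in young I/R (15.2 to 17.8), 19.1 in aged sham (17.7 to 20.4) and 15.04 in aged I/R (14.1 to 16.0). Ordered by level, from aged I/R through young I/R and young sham to aged sham, neighbouring intervals overlapped, whereas those of aged I/R and aged sham did not. Its I/R ratios were -0.15 (-0.33 to 0.02) in young and -0.34 (-0.48 to -0.21) in aged mice. Gm5475, on the opposite strand within this locus, held 1 to 4 UMIs per library.

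Slc40a1 encodes ferroportin, the cellular iron exporter (chr1:45908068-45926523). It stood at 14.9 CPM in young sham (13.5 to 16.5, 386 UMIs), 13.2 in young I/R (12.1 to 14.4, 524 UMIs), 10.2 in aged sham (9.23 to 11.2, 421 UMIs) and 11.1 in aged I/R (10.3 to 11.9, 739 UMIs). Both aged libraries lay below both young libraries, with overlap between sham and I/R within each age. The I/R ratio was -0.18 (-0.37 to 0.02) in young and 0.12 (-0.05 to 0.30) in aged mice, and both intervals held 0. The ratio of aged sham to young sham was -0.55 (-0.76 to -0.35), the lowest of the 10 genes in that comparison.

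Neither iron sensor passed 1.5-fold in any comparison. Aco1, the cytosolic aconitase that becomes iron regulatory protein 1 when it loses its iron-sulfur cluster (chr4:40143081-40198338), stood at 16.1 CPM in young sham (14.6 to 17.7), 13.6 in young I/R (12.4 to 14.8), 13.6 in aged sham (12.5 to 14.8) and 17.9 in aged I/R (16.9 to 19.0). Neighbours in the order of levels overlapped throughout, with young I/R and aged sham at the low end and aged I/R at the high end. Its I/R ratios were -0.25 (-0.44 to -0.06) in young and 0.40 (0.25 to 0.54) in aged mice.

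Ireb2, iron regulatory protein 2, which is degraded in iron-replete cells (chr9:54863789-54912530), stood at 43.6 CPM in young sham (41.1 to 46.2), 32.2 in young I/R (30.4 to 33.98), 37.7 in aged sham (35.9 to 39.7) and 35.6 in aged I/R (34.2 to 37.1). Young sham was the high library and young I/R the low one, while the aged libraries lay between them and overlapped. Its I/R ratios were -0.44 (-0.56 to -0.32) in young and -0.08 (-0.18 to 0.01) in aged mice. The young ratio lay near the median of all genes (-0.41), and it was -0.03 when scaled by gene-wise ratios, as defined below.

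Gpx4, the selenoenzyme that reduces lipid hydroperoxides in membranes (chr10:80047166-80056439), stood at 648 CPM in young sham (638 to 658, 16735 UMIs), 819 in young I/R (809.7 to 828, 32476 UMIs), 912 in aged sham (902 to 921, 37700 UMIs) and 579 in aged I/R (573 to 585, 38671 UMIs). No intervals overlapped, and the order of sham and I/R turned between the ages. The share of mitochondrial genes in the UMIs ranked the libraries in the same order, but was nearly equal in young sham (10.0%) and aged I/R (9.98%). Its part in the Gpx4 values was not tested. The I/R ratio of Gpx4 was 0.34 (0.31 to 0.36) in young mice and -0.65 (-0.67 to -0.63) in aged mice, where Gpx4 was 1.57-fold lower after I/R. Over 7 alternative settings, among them a denominator without mitochondrial genes, Gm42418 and Malat1, these ratios ran from 0.30 to 0.74 and from -0.75 to -0.63. A Gpx4 pseudogene in the annotation, Gpx4-ps2, has no row in the files, so reads shared with it are a source of uncertainty.

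The 4 comparisons ask what I/R did at each age, and how aged and young hearts differed in sham and after I/R. A gene was counted as higher or lower past 1.5-fold, and all 10 genes had at least 100 UMIs in both libraries of every comparison. Because each comparison shares libraries with others, the counts are given side by side and are not independent. A second scaling set the median gene-wise ratio to 1 over 10541 genes with at least 100 UMIs in every library, instead of scaling by total UMIs. It added 0.41 to the log2 ratios of young I/R over sham, -0.09 to those of aged I/R over sham, 0.14 to those of aged over young sham and -0.36 to those of aged over young I/R.

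In young mice, 1 of the 10 genes was higher after I/R (Ftl1), where 4.3% of all 10547 genes tested were higher, and 2 were lower (Trf and Tfrc), where 38.7% of all genes were lower. The median ratio of the 10 genes was -0.21 and that of all genes -0.41. With gene-wise scaling, 3 were higher (Fth1, Ftl1 and Gpx4), where 15.5% of all genes were, and 1 was lower (Tfrc), where 18.4% were. The ratios of Ncoa4, Slc11a2, Slc40a1 and Aco1 turned from below 0 to 0.04, 0.25, 0.23 and 0.16 under that scaling, so their direction in young mice depended on it. The share of lower genes among the 10 was below that among all genes under both scalings. It rests on 2 genes and 1 gene, too few to be read as a trait of the set.

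In aged mice, 0 of the 10 genes were higher after I/R, where 11.9% of all 11830 genes were, and 2 were lower (Tfrc and Gpx4), where 6.91% of all genes were lower. The medians were 0.05 for the 10 genes and 0.07 for all genes. Gene-wise scaling gave the same counts, where 8.66% of all genes were higher and 9.9% lower. Tfrc was the 1 gene of the 10 that was lower past 1.5-fold after I/R at both ages and under both scalings, where 1.98% of all 10541 genes were lower at both ages by total UMIs and 1.39% by gene-wise ratios.

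Between aged and young sham, 0 of the 10 genes were higher and 0 lower past 1.5-fold, where 4.11% and 16.3% of all 11028 genes were. The medians were 0.06 and -0.15. The ratios ran from -0.55 for Slc40a1 to 0.53 for Fth1, with Gpx4 at 0.49 (0.47 to 0.52). Gene-wise scaling put Fth1 (0.67) and Gpx4 (0.63) past 1.5-fold higher, 2 of the 10 where 7.82% of all genes were, and 0 lower where 9.53% were. It turned Ncoa4 from -0.09 to 0.05.

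Between aged and young I/R, 1 of the 10 genes was higher, where 32.5% of all 10957 genes were, and 0 were lower, where 3.45% were. Trf was the higher gene, 2.21-fold in aged I/R (1.14, 0.98 to 1.30). The medians were 0.09 for the 10 genes and 0.35 for all genes. Gene-wise scaling left Trf higher (0.79), where 12.3% of all genes were, and put Slc40a1 (-0.61) and Gpx4 (-0.85) lower, where 12.7% were. Scaled by total UMIs, Gpx4 stood at -0.50 (-0.52 to -0.48) and Ncoa4 at 0.55 (0.43 to 0.67), both within 1.5-fold. Fth1, Ftl1, Tfrc and Ireb2 had ratios of 0.04, 0.01, 0.25 and 0.15, which turned to -0.31, -0.35, -0.11 and -0.21 under gene-wise scaling.

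**Figure D2:**
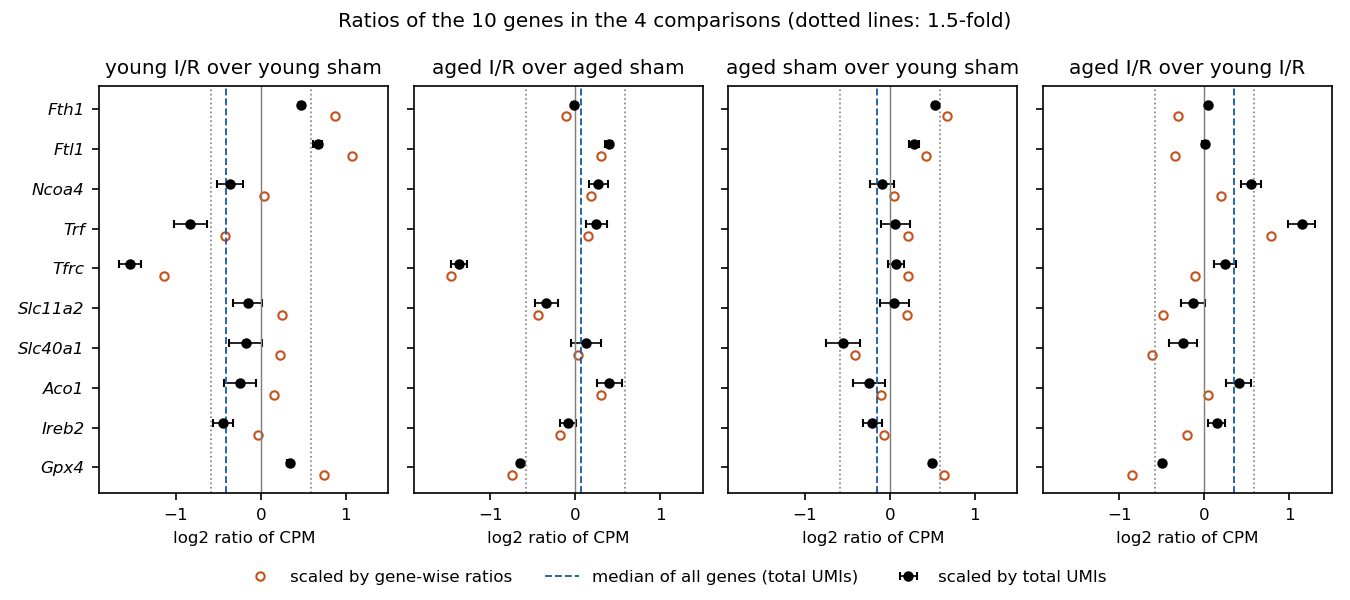
Log2 CPM ratios of the 10 genes in the 4 comparisons, scaled by total UMIs (filled, with 95% counting intervals) and by gene-wise ratios (open), with the median of all genes as a dashed line. Tfrc lies past the dotted 1.5-fold line on the low side after I/R at both ages, at -1.54 and -1.36, and Gpx4 turns from 0.34 to -0.65.

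The I/R ratio of each gene was then compared between ages. The difference, aged minus young, had a median of 0.50 over 10541 genes, and 7 of the 10 genes lay below that median. Opposite signs at the 2 ages, with both counting intervals clear of 0, were seen for 5 of the 10 genes (Fth1, Ncoa4, Trf, Aco1 and Gpx4), where 41.4% of all 10541 genes had them, and under gene-wise scaling for 4 (Fth1, Trf, Slc11a2 and Gpx4), where 37.7% did. Gpx4 differed by -0.99 (-1.03 to -0.96), Fth1 by -0.49 (-0.52 to -0.46) and Ftl1 by -0.28 (-0.34 to -0.21), so these 3 abundant transcripts had the lower I/R ratio in aged mice. Trf differed by 1.08 (0.85 to 1.30), Aco1 by 0.64 (0.41 to 0.88) and Ncoa4 by 0.64 (0.45 to 0.82), in the opposite direction. Aco1 and Ncoa4 thus lay near the median of all genes, 0.14 and 0.13 above it. Tfrc differed by 0.17 (0.02 to 0.33), which was small beside its I/R ratio at either age. Slc11a2, Slc40a1 and Ireb2 differed by -0.19 (-0.40 to 0.03), 0.30 (0.04 to 0.56) and 0.36 (0.21 to 0.50). With gene-wise scaling, which subtracts 0.50, Tfrc differed by -0.32, Slc40a1 by -0.20, Ireb2 by -0.14, Trf by 0.58 and Gpx4 by -1.49. Fth1 differed by -0.99, Ftl1 by -0.77, Slc11a2 by -0.68, Aco1 by 0.15 and Ncoa4 by 0.14 under that scaling. Replicates were lacking, so none of these differences was tested against the spread between animals.

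Ratios of a pair of genes within a library do not depend on how libraries are scaled, and their changes between libraries were read, not their size. The sham libraries held 0.0552 (young) and 0.0400 (aged) Tfrc UMIs per Fth1 UMI, and the I/R libraries 0.0137 and 0.0158. This ratio of an uptake to a storage transcript was lower after I/R, with log2 changes of -2.01 (-2.14 to -1.88) in young and -1.34 (-1.44 to -1.25) in aged mice. In aged mice the I/R ratio of Fth1 was -0.02, so the change there was close to the Tfrc ratio of -1.36. Tfrc per Slc40a1, an uptake to an export transcript, was 3.73, 1.45, 5.74 and 2.05, with log2 changes after I/R of -1.36 (-1.59 to -1.13) and -1.49 (-1.68 to -1.29). Both ratios separated the 2 sham libraries from the 2 I/R libraries.

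Heavy chain per light chain, Fth1 per Ftl1, was 6.65, 5.79, 7.89 and 5.93. It was lower after I/R at both ages, with log2 changes of -0.20 (-0.26 to -0.14) and -0.41 (-0.45 to -0.37). Ncoa4 per Fth1 was 0.0259, 0.0145, 0.0168 and 0.0206, and its change after I/R was -0.83 (-0.98 to -0.68) in young but 0.29 (0.18 to 0.40) in aged mice. The ratio of the carrier to its receptor, Trf per Tfrc, was alike in the sham libraries (0.326 and 0.325) and higher in young I/R (0.533) and aged I/R (0.992). Aco1 per Ireb2 was 0.369, 0.422, 0.361 and 0.504, and its change of 0.48 (0.31 to 0.65) after I/R in aged mice excluded 0, whereas that of 0.19 (-0.03 to 0.41) in young mice did not.

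**Figure D3:**
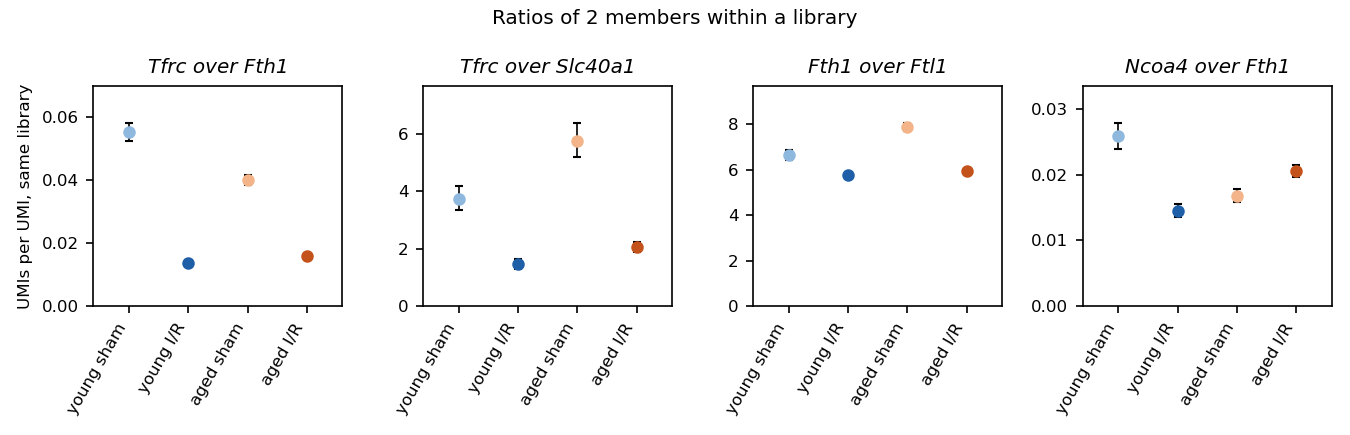
UMI ratios of 4 pairs of genes within each library, which no scaling of libraries can move, on linear axes from 0 with 95% intervals. Tfrc per Fth1 is 0.0552 and 0.0400 in the sham libraries and 0.0137 and 0.0158 in the I/R libraries.

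Whether the 10 genes belonged to one cell type was looked for in barcodes that held UMIs of at least 2 markers of a class and fewer than 2 of each other class. They were set against barcodes without any such marker, which numbered 4463 (aged I/R) to 25705 (young sham). Over 166 values with at least 20 UMIs in the marker-bearing barcodes, the level there was 0.674 to 1.99 times that in barcodes without markers, with a median of 0.997. A rare gene reached this minimum more readily where its level in the class was high. The range, the median and the counts below are shaped by that. Of these, 162 lay within 1.5-fold, and 18 had an interval without 1. Gpx4 ranged from 0.873 to 1.10 and Fth1 from 0.895 to 1.18, while the less abundant Slc11a2 ranged from 0.674 to 1.99. The 4 values past 1.5-fold rested on 20 to 24 UMIs each (Aco1 in fibroblast-marker barcodes of both young libraries, and Tfrc in macrophage-marker and Slc11a2 in mural-marker barcodes of young sham). Hemoglobin-marker barcodes gave 8 of the 18 intervals without 1. With 3 markers in place of 2, Ftl1 there stood at 314 (255 to 383, 97 UMIs), 360, 217 and 342 CPM. In barcodes without markers it stood at 164 (153 to 175), 274, 210 and 282 CPM. Ftl1 was picked for this after its values were seen.

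How well such barcodes mark a cell type was checked on similar ones, chosen with one part of a marker list, by reading the remaining markers. The chosen barcodes held at least 2 markers of that part, could also hold markers of other classes, and were compared with all other barcodes. The remaining markers were 1.07 to 1.35 times as high in endothelial-marker barcodes as in other barcodes, 1.19 to 1.59 times in fibroblast, 1.16 to 2.94 times in macrophage and 1.10 to 1.79 times in mural ones. For hemoglobin genes they were 3.80 to 76.1 times as high. In neutrophil-marker barcodes they were 3.02 to 19.3 times as high in the I/R libraries, on 4 to 11 UMIs, and 1493 times in young sham, where 1 barcode held 3 UMIs. The neutrophil class gave 4 of the 166 values above, 0.938 to 1.18 times the level without markers, all with intervals that held 1. Endothelial-, fibroblast-, macrophage- and mural-marker barcodes, the classes that gave most of the values, were weakly enriched for their own markers in this check. A like level of the 10 genes across these classes thus does not show that the cell types express the genes alike.

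The low Tfrc after I/R was present in these subsets of barcodes. All barcodes held cardiomyocyte markers, and most classes were weakly enriched for their own markers in the check above. A ratio near that of the whole library was therefore likely in each subset, and it does not place a difference in a cell type. In barcodes with no marker of another cell type its ratio was -1.59 (-1.87 to -1.32) in young and -1.30 (-1.77 to -0.86) in aged mice. In hemoglobin-bearing barcodes the ratios were -1.96 (-2.53 to -1.41) and -1.15 (-1.53 to -0.78), and in endothelial-marker barcodes -1.23 (-1.79 to -0.68) and -1.32 (-1.59 to -1.05). Without any barcode that held a hemoglobin UMI, they were -1.52 and -1.47, and without any that held a macrophage or neutrophil marker -1.47 and -1.34. For Gpx4 in aged mice, barcodes without markers gave -0.73 (-0.82 to -0.64) and the marker-bearing classes other than neutrophil gave -0.53 (hemoglobin) to -0.66 (macrophage).

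**Figure D4:**
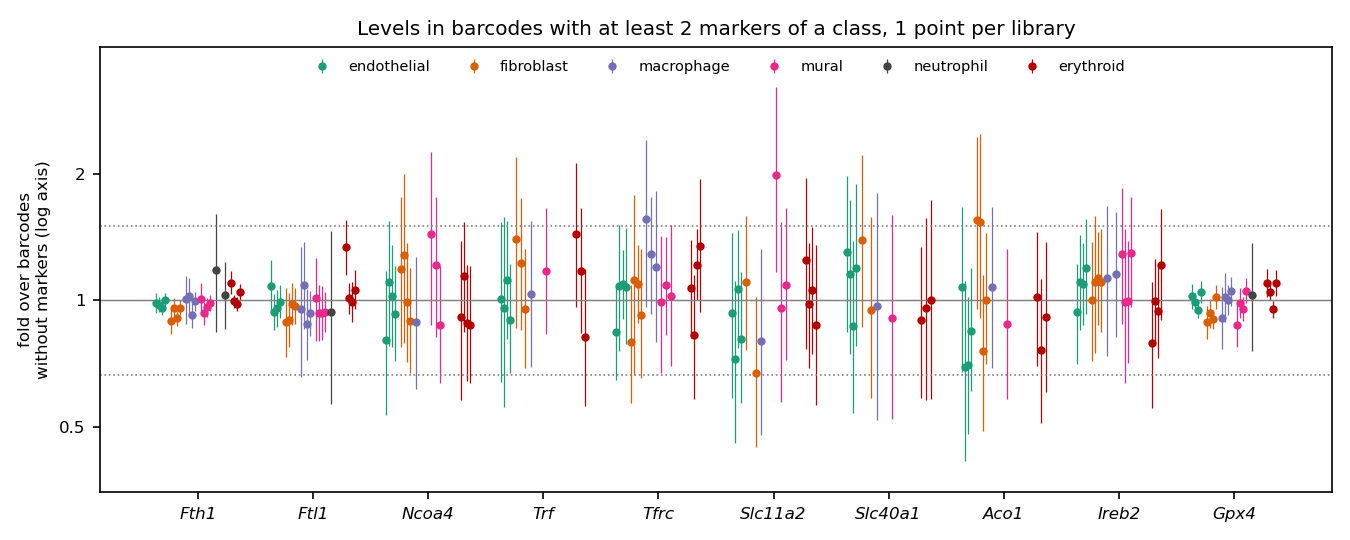
Level of each gene in barcodes with at least 2 markers of a class, as a fold over barcodes without markers of those classes (log axis). There is 1 point per library with at least 20 UMIs of the gene in the marker-bearing barcodes, with 95% counting intervals. Points scatter around 1, with 162 of 166 between the dotted 1.5-fold lines.

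The pathway around the 10 genes was read from a list of 63 further genes in 8 roles. In young I/R over sham, 48 of the 63 had at least 100 UMIs in both libraries, of which 5 were higher and 7 lower past 1.5-fold, where 4.3% and 38.7% of all genes were, with a median of -0.07 against -0.41 for all genes. In aged I/R over sham, 51 passed, 9 higher and 1 lower, where 11.9% and 6.91% of all genes were, with a median of 0.14 against 0.07. Between sham libraries 1 of 49 was higher and 3 lower in aged mice, where 4.11% and 16.3% of all genes were. Between I/R libraries 7 of 53 were higher and 3 lower, where 32.5% and 3.45% were, so that the share of higher genes was below that among all genes. Gene-wise scaling changed the counts to 19 higher and 1 lower in young mice, where 15.5% and 18.4% of all genes were, and to 8 and 1 in aged mice, where 8.66% and 9.9% were. Between sham libraries it gave 3 higher and 1 lower, against 7.82% and 9.53%, and between I/R libraries 2 higher and 15 lower, against 12.3% and 12.7%. The direction of such counts thus depended on the scaling in young mice and in both comparisons between ages. In aged I/R over sham it did not.

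Ferroptosis guards made up 4 of the 5 genes of the list that were higher in young I/R (Gclm, Gsr, Txnrd1 and Slc3a2, of 13 guards that passed), where 4.3% of all genes were higher, and 1 was lower (Dhodh), where 38.7% were. Gene-wise scaling gave 8 higher and 0 lower, where 15.5% and 18.4% of all genes were. In aged I/R 2 of 13 were higher under both scalings (Gclm and Txnrd1), where 11.9% and 8.66% of all genes were. Under both scalings 0 of the 13 were lower, where 6.91% and 9.9% of all genes were. Of 6 ferroptosis drivers that passed in young I/R, 0 were higher and 1 was lower (Alox5), where 4.3% and 38.7% of all genes were. Their median ratio was 0.33, beside 0.32 for the guards. Under gene-wise scaling 4 drivers were higher and 0 lower, where 15.5% and 18.4% of all genes were. Among 7 drivers that passed in aged I/R, 1 (Por) was higher under both scalings, where 11.9% and 8.66% of all genes were. None of the 7 was lower, where 6.91% and 9.9% of all genes were. The 13 guards counted include Keap1, which restrains the guard Nfe2l2 and is thus not itself a guard. Keap1 was not among the higher or lower genes at either age, with -0.40 in young I/R and 0.00 under gene-wise scaling. Txnrd1, Slc3a2, Dhodh, Por and Keap1 were named after their values were seen. Gclm, the modifier subunit of the enzyme that begins glutathione synthesis, stood at 23.9 and 19.9 CPM in young and aged sham and at 53.3 and 52.4 CPM after I/R. Both I/R libraries were high and both sham libraries low, with ratios of 1.16 (1.03 to 1.29) and 1.39 (1.28 to 1.504). Gsr, glutathione reductase, had a ratio of 0.93 (0.72 to 1.152) in young mice, from 9.17 to 17.5 CPM. Txnrd1, the cytosolic thioredoxin reductase, stood at 45.3, 84.5, 37.4 and 76.5 CPM.

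Of the 48 genes that passed at both ages, 3 were higher after I/R in both (Gclm, Slc39a14 and Txnrd1), where 0.949% of all 10541 genes were, and 0 lower in both, where 1.98% were. Gene-wise scaling added Por and gave 4 and 0, where 1.26% and 1.39% of all genes were. Opposite signs at the 2 ages, with both intervals clear of 0, were seen for 17 of the 48 by total UMIs. Under gene-wise scaling 16 had them, where 41.4% and 37.7% of all genes did. Slc39a14, an importer of iron that is not bound to transferrin, stood at 44.2 and 37.2 CPM in young and aged sham and at 86.2 and 62.2 CPM after I/R. Its young ratio of 0.96 (0.87 to 1.06) was opposite in sign to that of Tfrc, which takes up transferrin-bound iron. Steap3, which reduces iron in the endosome after uptake by the transferrin receptor, stood at 17.1, 5.34, 8.87 and 11.3 CPM, with a young I/R ratio of -1.68 (-1.92 to -1.44). It was highest in young sham and lowest in young I/R.

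Among the sensors and degradation genes, 2 of 3 were lower in young I/R (Herc2 and Bach1), where 38.7% of all genes were lower, and 0 of 3 in aged I/R, where 6.91% were. Gene-wise scaling left 0 of 3 lower at either age, with Herc2, named after its values were seen, at -0.19 and Bach1 at -0.36 in young mice. Cisd2, an iron-sulfur protein, and Alox5, a lipoxygenase, were lower in young I/R, with ratios of -0.80 (-0.87 to -0.73) and -0.83 (-1.13 to -0.53). Both, as all lower genes of the list in young mice other than Steap3, were within 1.5-fold under gene-wise scaling, Cisd2 at -0.39 and Alox5 at -0.42. Slc25a37, the mitochondrial iron importer mitoferrin, stood at 47.7, 32.5, 51.9 and 31.6 CPM. It was low in both I/R libraries, and its ratio passed 1.5-fold in aged mice (-0.71, -0.80 to -0.63). In young mice its ratio was -0.55 (-0.67 to -0.44), beside a median of -0.41 for all genes, and -0.15 under gene-wise scaling.

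In the heme group, 3 of 11 genes that passed were higher in aged I/R (Hmox1, Cd163 and Hp), where 11.9% of all genes were. In young I/R 0 of 9 were higher, where 4.3% of all genes were, and 1 was lower (Alas1), where 38.7% were. The ages cannot be set against each other by these counts, since Hmox1 and Hp were left out in young mice for fewer than 100 UMIs in young sham. Hp, haptoglobin, which binds free hemoglobin, had 37 UMIs in young sham and 282 in young I/R, a ratio of 2.31 (1.81 to 2.85), beside 1.04 (0.83 to 1.25) in aged mice. Cd163, the macrophage receptor for hemoglobin bound to haptoglobin, stood at 14.7, 11.1, 9.19 and 20.7 CPM and had a ratio of 1.17 (1.01 to 1.34) in aged mice. Macrophage markers summed to 443, 336, 556 and 588 CPM in the same libraries, and their part in the Cd163 values was not tested. Hmox1, heme oxygenase, which frees iron from heme, stood at 2.28 CPM in young sham (59 UMIs), 28.2 in young I/R (1117 UMIs), 2.76 in aged sham (114 UMIs) and 7.13 in aged I/R (476 UMIs). Its aged I/R ratio was 1.37 (1.07 to 1.68), and its level was lower in aged than in young mice after I/R (-1.98, -2.14 to -1.83).

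Hmox1 in young mice was outside the count because young sham held under 100 UMIs, and its ratio there was 3.62 (3.25 to 4.03). Slc7a11, the cystine importer that feeds glutathione synthesis, was rare, with 2 and 7 UMIs in young and aged sham and 73 and 65 UMIs after I/R. Its ratios were 4.57 (2.67 to 7.64) in young and 2.52 (1.40 to 3.89) in aged mice. Lcn2, which carries iron-bound siderophores and is abundant in neutrophils, stood at 1.51, 99.8, 2.08 and 72.6 CPM, next to neutrophil marker sums of 14.9, 105, 25.2 and 104 CPM, and the part of neutrophils in it was not tested. Hmox1 in young mice, Hp, Alas1, Slc7a11 and Lcn2 were chosen after their values were seen.

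Other genes named by the same rule differed by age. Nqo1, a quinone reductase, was higher in aged than in young sham (38.8 against 21.2 CPM, 0.87, 0.73 to 1.02), and Steap3 (-0.95), Cd163 (-0.68) and Bach1, a heme-sensing repressor (-0.59), were lower. After I/R, Cp, the ferroxidase ceruloplasmin that works with ferroportin, was higher in aged mice (245 against 103 CPM, 1.26, 1.21 to 1.31), as were Steap3 (1.08) and Cd163 (0.91). Hamp, the iron hormone hepcidin (-0.81), and Ptgs2, a prostaglandin synthase (-0.64), were lower beside Hmox1. Hamp held 20 and 57 UMIs in young and aged sham, and was thus outside the counts of I/R over sham, and 216 and 207 after I/R. Its I/R ratios, read after its values were seen, were 2.81 (2.15 to 3.55) in young and 1.17 (0.74 to 1.62) in aged mice. Cp stood at 112 and 151 CPM in young and aged sham, so aged I/R was its high library. Under gene-wise scaling Cd163 (-0.54 in sham, 0.55 after I/R) and Bach1 (-0.44) were within 1.5-fold.

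**Figure D5:**
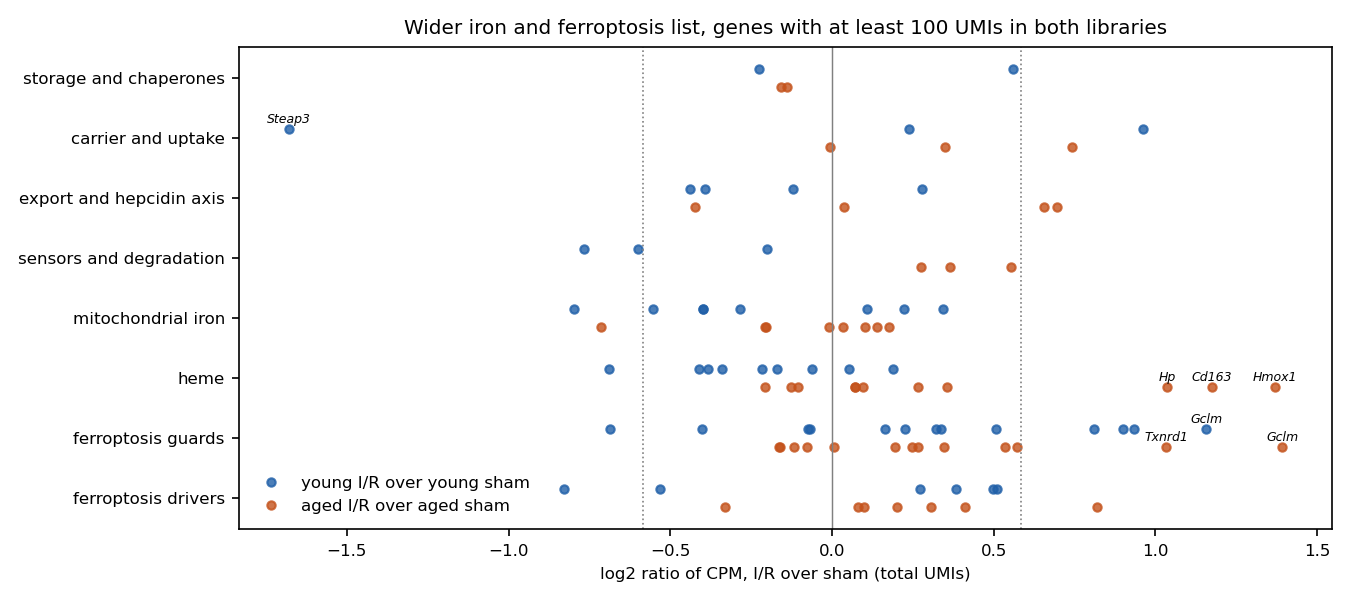
Log2 CPM ratios of I/R over sham, scaled by total UMIs, for the genes of the 63-gene list with at least 100 UMIs in both libraries, by role. Dotted lines mark 1.5-fold and genes at 1 or beyond are named; Gclm lies at 1.16 in young and 1.39 in aged mice, and Steap3 at -1.68 in young mice.

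The genes whose profile over the 4 libraries was most like that of Fth1, the member with the most UMIs, were sought among 1075 genes. The 5 nearest all encode proteins of the large ribosomal subunit: Rpl14, Rpl8, Rpl17, Rpl10 and Rpl12, at Euclidean distances of 0.0544 to 0.0922 in centred log2 CPM. Rpl14 stood at 213, 308, 313 and 302 CPM, and like Fth1 it was low in young sham alone. The search was limited to genes with a mean of at least 100 CPM. The share of ribosomal protein genes among the 1075 was not counted, so the 5 names do not measure a link with Fth1. The profiles share the same 4 libraries, and a likeness over 4 points is a description.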

How the data were processed

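Libraries were made from left ventricle by the authors with the 10x Chromium 3′ kit, and the reads were aligned with Cell Ranger 6.0.2 to mm10. The filtered matrices were used as the authors deposited them: whole UMI counts per gene and barcode, with no normalization. Annotation release, strand setting and number of mice are not given in the sources used here. The authors' cell filters and clusters were not used here.

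Counts were summed over all barcodes of each library and divided by its total UMIs (25836175 to 66767829) to give CPM. Groups were taken from the labels. With 1 library per condition no test was run. Ratios carry 95% exact conditional (Clopper-Pearson) intervals, levels exact Poisson ones, and differences between ages an interval from the Poisson variance of the 4 counts. A ratio past 1.5-fold was counted among genes with at least 100 UMIs in both libraries. The ratio code was tested on simulated data. Doublets were not called, since no cell types were assigned.

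The 10 genes, the 63-gene list and the marker lists were chosen with earlier results of these data known. Text names all 10 genes, up to 3 genes of the 63 at each end per comparison past 1.5-fold, and the 5 profiles nearest to the member with the most UMIs among genes with at least 100 UMIs in every library and a mean of at least 100 CPM. Genes of the 63 named outside this rule are marked as named after their values were seen. Alternatives were another scaling, another denominator, subsets and weights of barcodes, 2-fold in place of 1.5-fold, lower UMI minimums and 3 markers in place of 2. Gene positions and hairpins came from GENCODE M21 (GRCm38, the assembly also called mm10). Python 3.11.15, numpy 2.4.6, scipy 1.17.1, pandas 2.3.3 and matplotlib 3.10.9 were used.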

Additional observations from a re-analysis of the deposited data

Results flagged for a closer look

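For 5 of the 10 genes the I/R ratio had opposite signs in young and aged mice, as log2 CPM ratios with 1 library per condition and both counting intervals without 0. The same held for 41.4% of all 10541 genes, whose median ratio was itself -0.41 in young and 0.07 in aged mice. Under gene-wise scaling it held for 4 of the 10 (Fth1, Trf, Slc11a2 and Gpx4), where 37.7% of all genes did. The difference between the ages was not tested, since no condition has a replicate. Gpx4 had ratios of 0.34 in young and -0.65 in aged mice, a difference of -0.99, and the signs were the same under gene-wise scaling (0.74 and -0.75). Fth1 had ratios of 0.47 and -0.02, a difference of -0.49, with 0.87 and -0.11 under gene-wise scaling, but its aged ratio was 0.0073 in barcodes with at least 200 detected genes, so that its signs did not differ there. Trf had ratios of -0.83 and 0.25, a difference of 1.08, with -0.43 and 0.15 under gene-wise scaling. Ncoa4 had -0.36 and 0.27, a difference of 0.64, and Aco1 had -0.25 and 0.40, a difference of 0.64. Under gene-wise scaling these 2 genes had the same sign at both ages, Ncoa4 at 0.04 and 0.18 and Aco1 at 0.16 and 0.31.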

How the results depend on the processing

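Of 40 ratios (10 genes, 4 comparisons), 6 passed 1.5-fold, and 5 of the 6 kept that call in all 7 alternatives to the scaling, denominator and barcodes used. The exception was Trf in young I/R, at -0.43 under gene-wise scaling. The sign was the same in all 7 for 27 of the 40. Gene-wise scaling put the median of the 10 genes at 0.19 in young I/R over sham, 0.20 in aged over young sham and -0.26 in aged over young I/R, and leaving Gm42418, Malat1 and mitochondrial genes out of the denominator put the median in aged over young I/R at -0.0662. Genes higher in young I/R numbered 3 with gene-wise scaling, 2 with that denominator, 2 in barcodes with at least 200 detected genes and 0 at 2-fold, and genes lower numbered 1 with gene-wise scaling and 1 at 2-fold. In aged I/R, 1 was lower at 2-fold. In aged over young sham, 2 were higher with gene-wise scaling, 1 with that denominator and 2 in barcodes with at least 200 genes. In aged over young I/R, 2 were lower with gene-wise scaling and 1 with that denominator, and 2 were higher without hemoglobin-bearing barcodes and 2 with equal weight per barcode. Of these settings, gene-wise scaling alone has its shares of all genes given above. The counts under the other settings show how the calls moved, and do not compare the 10 genes with all genes. Among all genes, counting every gene with at least 1 UMI in both libraries gave 8.84% higher and 49.0% lower in young I/R, 18.5% and 17.4% in aged I/R, 12.1% and 25.8% in aged over young sham and 40.4% and 11.7% in aged over young I/R. The causes were not tested. No paired analysis was possible because each condition has 1 library. Depth limits the rarer genes most: Slc40a1 had 386 to 739 UMIs per library, against 26070 to 96129 for Fth1.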
